A study of Mus with 8 samples.

Results

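The nuclear genes for subunits of the mitochondrial respiratory chain and of ATP synthase were followed through 8 RNA-seq libraries of 3T3-L1 cells, a mouse preadipocyte line. A gene was a member if its symbol began with Nduf and a letter of the complex I series, was one of the Sdh genes, or began with Uqcr, with Cox and a subunit number, or with Atp5, pseudogenes excepted. This rule found 84 of the 24013 genes in the count table. Of these, 37 fell to complex I, 4 to complex II, 8 to complex III, 18 to complex IV and 17 to complex V. The rule went by name alone: Ndufa4 stands with complex I although it is now regarded as a subunit of complex IV, and Cyc1, Ndufab1, Cycs and Atpif1 are outside it.

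Complexes I to IV carry electrons from NADH and succinate to oxygen and pump protons across the inner mitochondrial membrane (complex II passes on electrons without pumping). Complex V, the ATP synthase, lets the protons flow back and makes ATP. Most subunits are nuclear-encoded and imported, and white fat precursor cells gain mitochondria as they mature into fat cells. Several subunits exist as isoforms from separate genes, some of them used mainly in muscle, in brown fat or in testis.

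Control cells (C) carried a lentiviral scrambled shRNA and knock-down cells (P) a lentiviral shRNA against Prep1, a homeodomain transcription factor whose gene is Pknox1. Both were selected with puromycin, and 1 hairpin stood for the knock-down. Each was sequenced at day −2, in growth medium, and at day 1, a day after 1 µM dexamethasone, 0.5 mM IBMX and 1 µg/ml insulin were added to confluent cells in another serum, with 2 biological replicas per condition. Induction by the cocktail cannot be told apart from time, confluence and serum. In bulk RNA, fewer cells of a kind and less RNA per cell cannot be told apart either.

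Libraries held 20428800 to 27614400 counts on genes. Levels are given as CPM, counts scaled to library size with TMM factors, and 3 counts correspond to 0.107 to 0.160 CPM. Differences are log2 ratios with a standard error (SE). A gene is called changed, higher or lower where edgeR's quasi-likelihood test gave an adjusted p under 0.1 (Benjamini-Hochberg method, over the 13339 genes that passed the filter on low counts). With 2 libraries a condition, an exact permutation test cannot go below p = 0.333, so calls rest on a spread shared across genes. Transcript lengths were not at hand, so levels of different genes are not ranked against each other. Pknox1 stood at 28.1 and 26.5 CPM in C cells, against 17.3 and 18.3 in P cells at day −2. The values at day 1 were 38.1 and 36.5 CPM in C cells, against 23.6 and 23.8 in P cells. The log2 ratio, P against C, was −0.62 at day −2 (edgeR adjusted p = 0.0558) and −0.65 at day 1 (edgeR adjusted p = 0.0575).

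The libraries were checked against cell markers. Fibroblast and preadipocyte markers, 8 genes, summed to 41890 CPM in replica 1 of P cells at day −2, to 10733 in replica 2, and to between 7806 and 14555 in the other libraries. The sum in replica 1 was mostly that of the collagens Col1a1 and Col3a1, at 23560 and 15766 CPM against 4882 and 3904 in replica 2. The other markers of the list did not move as one: Thy1 stood at 941 and 684 CPM in these replicas, Pdgfra at 196 and 195, and Ly6a at 27.6 and 61.2. Mature adipocyte markers, 6 genes with Fabp4 and Adipoq among them, summed to 2.05 to 2.70 CPM in C cells of both days, to 33.9 and 22.4 in P cells at day −2 and to 129.7 in each replica of P cells at day 1. The sums in P cells at day −2 were mostly that of Fabp4, at 28.4 and 19.8 CPM. Plin1 stood at 4.85 and 1.68 CPM there, Adipoq at 0.27 and 0.25, and Cidec at 0.32 and 0.43. Leukocyte, endothelial, epithelial and skeletal muscle lists, 5, 4, 4 and 5 genes, summed to at most 8.05, 1.86, 3.31 and 3.46 CPM. Ptprc did not exceed 8 counts, Epcam 4 and Myod1 2 in any library. Other genes of the 4 lists stood higher, with up to 144 counts for Csf1r, 14 for Pecam1, 78 for Krt8 and 55 for Tnnt3. Csf1r stood at 5.74 and 4.96 CPM in C cells at day −2 and at 0.355 and 0.119 at day 1. The part of these markers in the results on respiratory chain genes was not tested.

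Of the 84 members, 76 passed the filter, 36 of complex I, 4 of complex II, 8 of complex III, 11 of complex IV and 17 of complex V. The 8 others were isoforms known mainly from muscle, brown fat, testis, lung or oxygen-starved cells. Cox8c was at 0 in every library, and Cox8b and Cox7b2 had at most 1 count. Cox7a1 had at most 3 counts, Ndufa4l2 at most 4 and Cox4i2 at most 7. Cox6a2 reached 14 counts, in replica 1 of P cells at day 1. Cox6b2 had 18 counts in replica 2 of C cells at day 1 and at most 2 elsewhere. Their ubiquitous counterparts Cox4i1, Cox6a1, Cox6b1, Cox7a2, Cox7b, Cox8a and Ndufa4 all passed the filter. No library held more than 18 counts of any of these 8 genes, before induction or a day after it, with or without knock-down.

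All members together took 0.624% of the counts in replica 1 of P cells at day −2 and up to 0.955% in the other libraries. Set against the mean of C cells at day −2, the median log2 ratio over the 76 genes was −0.83 in replica 1 of P cells at day −2, with quartiles of −1.29 and 0.08. In replica 2 of the same condition it was 0.00. The 2 replicas of P cells before induction thus differed over most of the respiratory chain. All genes tested also spread widely in replica 1, in both directions, with quartiles of −0.78 and 0.65 around a median of −0.01. The log2 difference between the 2 replicas had a standard deviation of 1.01 over the members and 1.00 over all genes.

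**Figure D1:**
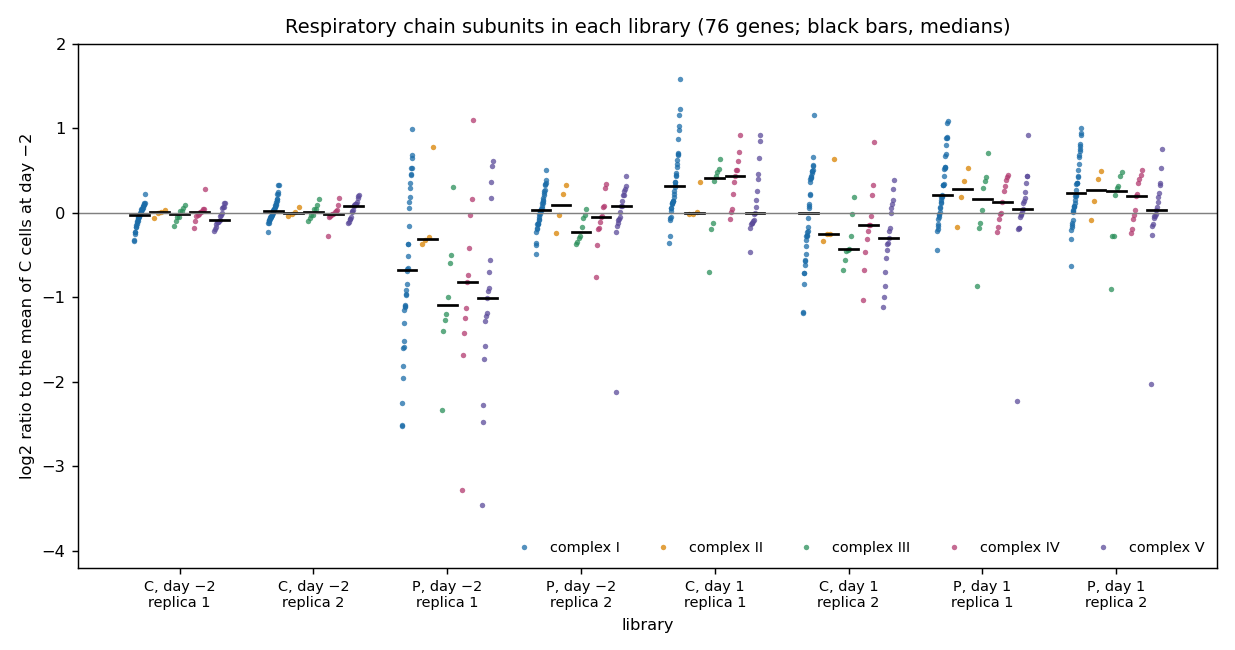
Log2 ratio of each of 76 subunit genes to the mean of C cells at day −2 (vertical axis) in the 8 libraries (horizontal axis), 1 point a gene, coloured by complex, with black bars at the medians. Replica 1 of P cells at day −2 spreads widely and its medians lie below 0 in every complex, whereas the medians of replica 2 lie between −0.22 and 0.10.

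At day 1 the medians were 0.26 and −0.22 in replicas 1 and 2 of C cells, and 0.18 and 0.20 in P cells. Medians over all 13339 genes lay within 0.03 of 0 in each library. Replica 1 of P cells at day −2 was the lowest of the 8 libraries for 54 of the 76 members (71.1%), and for 29.9% of all genes tested. It was the highest for 10 members (13.2%) and for 28.0% of all genes. It was under 0.5 times replica 2 for 28 members (36.8%), against 17.2% of all genes. It was over 2 times replica 2 for 2 members (2.63%), Cox6a1 and Ndufa13, against 10.4% of all genes. Col1a1 alone took 1.97% of the counts in this library and 0.496% in replica 2.

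The deficit was uneven within each complex. Cox7b, a small subunit of cytochrome c oxidase, stood at 8.41 CPM in replica 1 and at 87.3 in replica 2 of P cells at day −2. Atp5md, a small membrane subunit of ATP synthase, stood at 5.11 and 51.5 CPM, and Ndufb4, an accessory subunit of complex I, at 7.03 and 50.6. Atp5b, the catalytic beta subunit, stood at 1180 and 1213 CPM, and the alpha subunit Atp5a1 at 1125 and 678. Neither of these was short in replica 1, nor was the membrane subunit gene Atp5g2, with 160 against 132 CPM, whereas the gamma subunit Atp5c1 was, with 51.5 against 155 CPM. The share of members under 0.5 times replica 2 was 12 of 36 in complex I, 0 of 4 in complex II, 3 of 8 in complex III, 5 of 11 in complex IV and 8 of 17 in complex V.

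A smaller difference ran between the replicas of C cells at day 1. There 10 members (13.2%) were over 2 times higher in replica 1 and 0 in replica 2, beside 1.85% and 2.47% of all genes. Atp5l, another small ATP synthase subunit, stood at 100 and 30.5 CPM there, and Ndufb4 at 51.9 and 17.9. Across the 76 members, the difference between replicas of P cells at day −2 (replica 1 minus 2) and that of C cells at day 1 (replica 2 minus 1) correlated with Pearson's r = 0.781 and Spearman's rho = 0.790. Over all genes tested, which are not independent replicates, r was 0.355 and rho 0.517. The pairs of libraries share no sample, and base composition and transcript length of the genes were not at hand. Members lower in replica 1 of P cells at day −2 tended to be lower in replica 2 of C cells at day 1. The median difference in C cells was −0.76 for the 28 members under 0.5 times replica 2 in P cells, and −0.23 for the others. The 28 members under 0.5 times replica 2 had a median genomic span of 6.62 kb, the other members 7.97 kb and all genes tested 22.6 kb. Of the 6 pairs of conditions this one had the strongest correlation over the members. With replica 1 minus 2 taken in each condition, C cells at day −2 correlated with r = 0.52 with P cells at day −2 and with r = −0.60 with C cells at day 1. The 28 members differed by a median of −0.19 between the replicas of C cells at day −2 and by 0.03 between those of P cells at day 1, where the other members differed by 0.00 and −0.02. The part of RNA quality or library preparation in these differences was not tested.

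**Figure D2:**
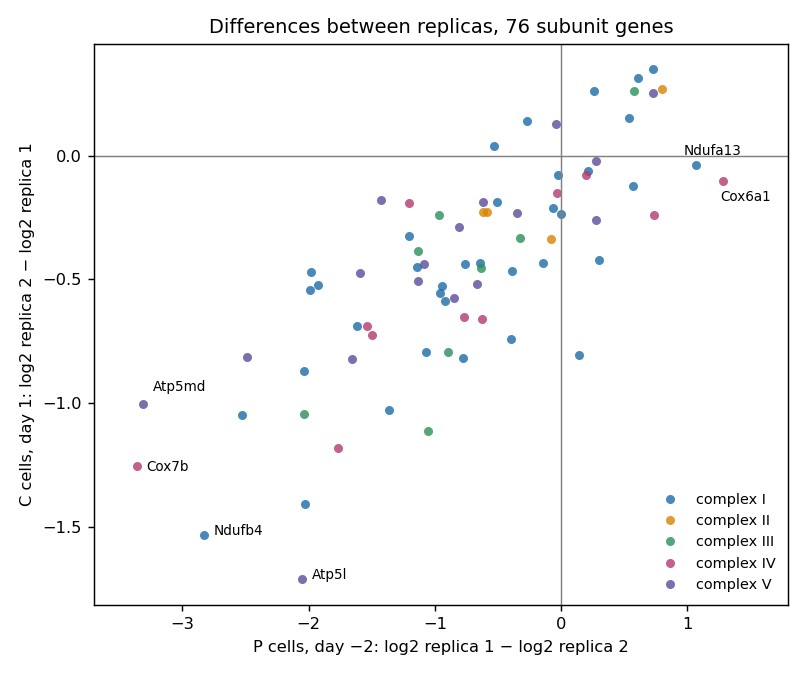
Difference between replicas of P cells at day −2 (horizontal axis, log2 replica 1 minus log2 replica 2) and of C cells at day 1 (vertical axis, log2 replica 2 minus log2 replica 1) for 76 subunit genes coloured by complex. Genes far to the left, such as Cox7b, Atp5md and Ndufb4, also lie low, and the 76 points correlate with r = 0.781.

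The knock-down was compared with control cells before induction. Of the 76 members, 1 was called lower in P cells and 0 higher, beside 3.72% of all genes tested called lower and 7.62% called higher. This gene was Atp5g1. With the study's ratio threshold as well, over 2 or under 0.5, the same gene passed, beside 6.98% of all genes. The median log2 ratio over the members was −0.34 (all genes tested 0.01), which rests on replica 1. Without replica 1 of P cells at day −2 the median was 0.03 and 4 members were called, beside 19.6% of all genes in both directions. Without replica 2 the median was −0.84 and 65 were called, beside 65.0%.

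Atp5g1 is 1 of 3 genes, with Atp5g2 and Atp5g3, that encode the same mature subunit c, the ring of the ATP synthase rotor, behind different import sequences. It stood at 109 and 114 CPM in C cells, against 20.0 and 25.5 in P cells at day −2. The values at day 1 were 80.9 and 68.8 CPM in C cells, against 23.8 and 27.4 in P cells. Every P library lay below every C library at both times, and the low values were seen in both replicas of P cells at day −2. Set against C cells, the log2 ratio was −2.29 at day −2 (SE 0.19), a level 4.89 times lower (edgeR adjusted p = 0.0020). At day 1 the log2 ratio was −1.55 (SE 0.18), 2.92 times lower (edgeR adjusted p = 0.0079). At day −2 the call held in 20 of 20 other settings, with log2 ratios from −2.48 to −2.12, and at day 1 in 18 of 20, from −1.68 to −1.45. The 2 settings without the call left out a library of P cells at day 1, with edgeR adjusted p = 0.142 without replica 1 and 0.115 without replica 2.

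Atp5g2 stood at 116 and 134 CPM in C cells, against 160 and 132 in P cells at day −2, and at 196 and 163 in C cells, against 137 and 142 in P cells at day 1. Set against C cells its log2 ratio was 0.23 at day −2 (edgeR adjusted p = 0.406) and −0.36 at day 1 (edgeR adjusted p = 0.359). Atp5g3 stood at 313 and 365 CPM in C cells, against 208 and 320 in P cells at day −2, and at 312 and 274 in C cells, against 333 and 329 in P cells at day 1. Its log2 ratios were −0.36 (edgeR adjusted p = 0.332) and 0.17 (edgeR adjusted p = 0.826). Neither gene showed a call between P and C cells with all 8 libraries, and at day −2 the ranges of P and C cells overlapped. At day 1 the P libraries lay below the C libraries for Atp5g2 and above them for Atp5g3. Of 20 other settings, 4 called Atp5g2 at day 1 and 0 called Atp5g3. The share of Atp5g1 in the reads on the 3 genes, computed after its values were seen, was 20.3% and 18.6% in C cells, against 5.15% and 5.35% in P cells at day −2. The values at day 1 were 13.7% and 13.6% in C cells, against 4.82% and 5.49% in P cells. Their 95% Wilson intervals, which cover counting error only, lay between 4.45% and 5.94% in P cells and between 13.0% and 21.0% in C cells. These are shares of reads, with gene lengths not taken into account, and how reads matching several of these similar genes were counted is not given in the sources used here.

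**Figure D3:**
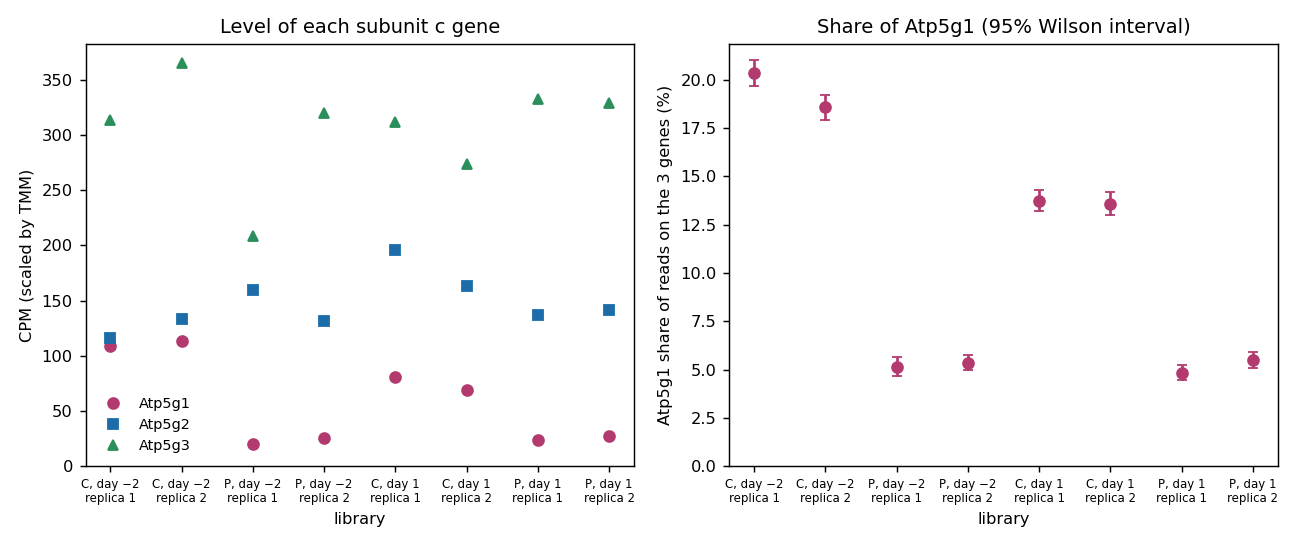
Left, scaled CPM of Atp5g1, Atp5g2 and Atp5g3 in each library, and right, the percentage of reads on these 3 genes that fell on Atp5g1, with 95% Wilson intervals. Atp5g1 lies at 20.0 to 27.4 CPM in the P libraries and at 68.8 to 114 CPM in the C libraries, whereas the other genes show no such gap.

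After induction, 2 members were called lower in P than in C cells and 0 higher, beside 3.42% of all genes called lower and 2.73% called higher. Atp5g1 was 1 of them and the only member past the ratio threshold, which 4.06% of all genes passed. The other was Cox7a2l, also known as Scaf1, which links complexes III and IV in supercomplexes. The median log2 ratio over the members was 0.11 (all genes tested 0.01), and it was −0.12 without replica 2 of C cells at day 1. Without any 1 of the 8 libraries the count of 2 became 0 or 1, or 13 and 15 without replica 1 or 2 of P cells at day −2, beside 0.446% to 29.4% of all genes in both directions.

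Cox7a2l stood at 109 and 106 CPM in C cells, against 120 and 105 in P cells at day −2. The values at day 1 were 203 and 192 CPM in C cells, against 118 and 125 in P cells. C cells at day 1 thus stood above the 3 other conditions, which spanned 105 to 125 CPM. It rose with induction in C cells by a log2 ratio of 0.88 (SE 0.14, edgeR adjusted p = 0.0047). In P cells the log2 ratio of induction was 0.11 (edgeR adjusted p = 0.588). The knock-down ratio at day 1 was −0.70 on the log2 scale (SE 0.14, edgeR adjusted p = 0.0416), a call made in 12 of 20 other settings. The responses differed by −0.77 on the log2 scale, P minus C (SE 0.19, edgeR adjusted p = 0.144), a difference that edgeR did not call and DESeq2 did. Its relative Cox7a2 stood at 60.1 and 59.0 CPM in C cells, against 22.2 and 75.6 in P cells at day −2, and at 98.3 and 43.3 in C cells, against 78.1 and 76.4 in P cells at day 1, a spread between replicas wider than any difference between conditions. Cox7a2 overlaps Tmem30a in the annotation, and use of strand in counting is not given in the sources used here.

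The other isoform pairs of cytochrome c oxidase were not called between P and C cells. Cox4i1, the ubiquitous form of subunit 4, stood at 216 and 202 CPM in C cells, against 156 and 160 in P cells at day −2. The values at day 1 were 268 and 241 CPM in C cells, against 186 and 198 in P cells. Its P libraries lay below the C libraries of the same day at both times. The log2 ratios were −0.40 at day −2 (edgeR adjusted p = 0.131) and −0.41 at day 1 (edgeR adjusted p = 0.182). DESeq2 called it lower at both times, beside 19.5% and 10.6% of all genes called in both directions. Of 20 other settings, DESeq2 among them, 6 called Cox4i1 at day −2 and 5 at day 1. Cox6a1 stood at 175 and 181 CPM in C cells, against 381 and 157 in P cells at day −2, and between 222 and 243 in all libraries of day 1. Cox6b1 ranged from 52.4 to 108 CPM, Cox7b from 8.41 to 98.2 and Cox8a from 77.6 to 199 over the 8 libraries.

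Complex II, the succinate dehydrogenase that also serves the citric acid cycle, has 4 members here. They gave 0 calls in the 4 comparisons with edgeR and with DESeq2 on all 8 libraries. Over the 4 comparisons, edgeR called 6.15% to 35.6% of all genes tested and DESeq2 10.6% to 38.4%. At an unadjusted edgeR p under 0.05 there was 1 gene of complex II, Sdha, in the comparison of P with C cells at day 1. Of all 13339 genes, 2166 passed that threshold there. Of 20 other settings, 4 called Sdha in that comparison and 4 called Sdhc by induction in C cells. Sdha, its flavoprotein, stood at 152 and 153 CPM in C cells, against 125 and 192 in P cells at day −2, and at 151 and 128 in C cells, against 199 and 202 in P cells at day 1. The knock-down ratio at day 1 was 0.52 on the log2 scale (SE 0.22, edgeR adjusted p = 0.298). Its P libraries lay above its C libraries at day 1 and overlapped them at day −2. Sdhb, the iron-sulfur subunit, ranged from 69.8 to 89.8 CPM over the 8 libraries. The membrane anchors Sdhc and Sdhd ranged from 66.1 to 115 and from 51.4 to 77.1 CPM.

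Induction was compared with day −2 in C cells. Of the 76 members, 7 were called higher, beside 18.1% of all genes tested, and 2 lower, beside 17.4%. In both directions the share of members was below that of all genes. The ratio threshold was passed by 1 member, Ndufv3, beside 20.4% of all genes. Complex I held 5 of the 7 genes called higher, and complexes IV and V 1 each. The median over the members was 0.06 (all genes tested −0.01), and 44 of 76 log2 ratios were positive. The count of 9 calls moved by over 1.5 times without any 1 of the 8 libraries, to 30 without either replica of P cells at day −2 and to between 2 and 5 without any other, beside 14.1% to 61.6% of all genes. Fitted on C cells alone it was 27, beside 62.6%.

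Ndufv3, an accessory subunit of the NADH-binding module of complex I, stood at 40.2 and 43.1 CPM at day −2 and at 125 and 93.4 at day 1 in C cells. In P cells it stood at 56.8 and 46.1 CPM at day −2 and at 88.6 and 80.2 at day 1. Both kinds of cells had more of it at day 1, with no overlap between days. The log2 ratio was 1.39 in C cells (SE 0.20, edgeR adjusted p = 0.0032), called in 20 of 20 other settings, and 0.71 in P cells (SE 0.19, edgeR adjusted p = 0.0414). The responses differed by −0.68 (edgeR adjusted p = 0.329).

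Ndufa3, a small membrane arm subunit, stood at 13.7 and 13.6 CPM at day −2 and at 27.1 and 20.1 at day 1 in C cells, and at 10.6 and 11.7 and then 22.2 and 23.6 in P cells. Its log2 ratio was 0.79 in C cells (edgeR adjusted p = 0.0255) and 1.04 in P cells (edgeR adjusted p = 0.0120). Ndufb10, also of the membrane arm, stood at 68.3 and 63.7 CPM and then at 147 and 87.8 in C cells, and at 51.0 and 67.0 and then 122 and 110 in P cells. Its log2 ratios were 0.83 (edgeR adjusted p = 0.0582) and 0.97 (edgeR adjusted p = 0.0419). Ndufv3, Ndufa3 and Ndufb10, and Ndufb3, which was chosen after its values were seen, were called higher in both kinds of cells. In other settings the calls of Ndufv3 held in 20 of 20 in C cells and 16 in P cells, those of Ndufa3 in 16 and 19, those of Ndufb10 in 11 and 16, and those of Ndufb3 in 8 and 11. Ndufb3 rose by a log2 ratio of 0.50 in C cells and 0.61 in P cells, from 15.9 and 13.6 CPM to 19.8 and 21.9, and from 13.2 and 15.9 to 21.2 and 23.3.

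Ndufb11 stood at 66.8 and 84.6 CPM at day −2 and at 123 and 106 at day 1 in C cells, a log2 ratio of 0.60 (edgeR adjusted p = 0.0365). In P cells its values were 92.0 and 96.0 and then 108 and 107 CPM, and it was not called. Ndufb11 overlaps the RNA-binding protein gene Rbm10 in the annotation. Atp5g2 was called higher in C cells, with a log2 ratio of 0.52 (edgeR adjusted p = 0.0617), and Atp5g1 lower, with −0.58 (edgeR adjusted p = 0.0528). In C cells the share of Atp5g2 in the reads on the 3 subunit c genes was 21.5% and 21.8% at day −2 and 33.3% and 32.3% at day 1. The calls of Ndufb11, Atp5g2 and Atp5g1 in C cells held in 15, 10 and 11 of 20 other settings. Within the C libraries the subunit c genes Atp5g1 and Atp5g2 moved in opposite directions, and each replica showed it.

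Uqcrc1, a core protein of complex III, was the other member called lower. It stood at 274 and 241 CPM at day −2 and at 158 and 190 at day 1 in C cells, and at 319 and 213 and then 141 and 138 in P cells. The days did not overlap in either kind of cell. Its log2 ratio was −0.57 in C cells (SE 0.22, edgeR adjusted p = 0.0987) and −0.93 in P cells (SE 0.22, edgeR adjusted p = 0.0264). The call held in 9 of 20 other settings in C cells and in 16 in P cells. Its partner Uqcrc2 had log2 ratios of −0.30 and 0.24, not called (edgeR adjusted p = 0.495 and 0.592).

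In P cells, 10 of the 76 members were called higher by induction, beside 14.0% of all genes, and 1 lower, Uqcrc1, beside 17.4%. The share called higher was near that of all genes. The ratio threshold was passed by 4 members, Ndufa3, Ndufs6, Uqcr10 and Ndufa7, beside 18.0% of all genes. The median over the members was 0.43 (all genes tested 0.02), with 61 of 76 log2 ratios positive, and it too rests on the baseline library: it was 0.14 without replica 1 of P cells at day −2 and 0.95 without replica 2. The count of 11 calls was 17 and 64 in these fits (42.2% and 67.2% of all genes), 6 without either replica of C cells at day −2 (19.1% and 19.0%), and 1 and 0 without replica 1 or 2 of P cells at day 1 (10.1% and 9.60%). Fitted on P cells alone it was 1, beside 10.0%.

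Uqcr10, a small subunit of complex III, stood at 20.7 and 38.7 CPM at day −2 and at 81.9 and 69.8 at day 1 in P cells, a log2 ratio of 1.35 (SE 0.36, edgeR adjusted p = 0.0402). Ndufs6, a zinc-binding subunit of complex I, stood at 10.1 and 17.2 CPM and then at 28.1 and 28.6, a log2 ratio of 1.05 (SE 0.28, edgeR adjusted p = 0.0399). Ndufa7, an accessory subunit, stood at 41.1 and 86.6 CPM and then at 154 and 148, a log2 ratio of 1.24 (SE 0.39, edgeR adjusted p = 0.0649). In these genes both day 1 libraries lay above both day −2 libraries, and the lower value at day −2 was that of replica 1. Cox8a stood at 77.6 and 120 CPM and then at 176 and 184, with a log2 ratio of 0.87 (edgeR adjusted p = 0.0658). The remaining calls, named after their values were seen, were Ndufa2, with a log2 ratio of 0.50, and Ndufs3, a core subunit, with 0.62. Of 20 other settings, the calls in P cells held in 17 for Uqcr10 and Ndufs6, 13 for Ndufa7, 11 for Cox8a, 14 for Ndufa2 and 8 for Ndufs3. The same genes in C cells had log2 ratios of 0.17 for Uqcr10, 0.17 for Ndufs6, 0.88 for Ndufa7, 0.33 for Cox8a, 0.33 for Ndufa2 and 0.47 for Ndufs3, none of them called.

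**Figure D4:**
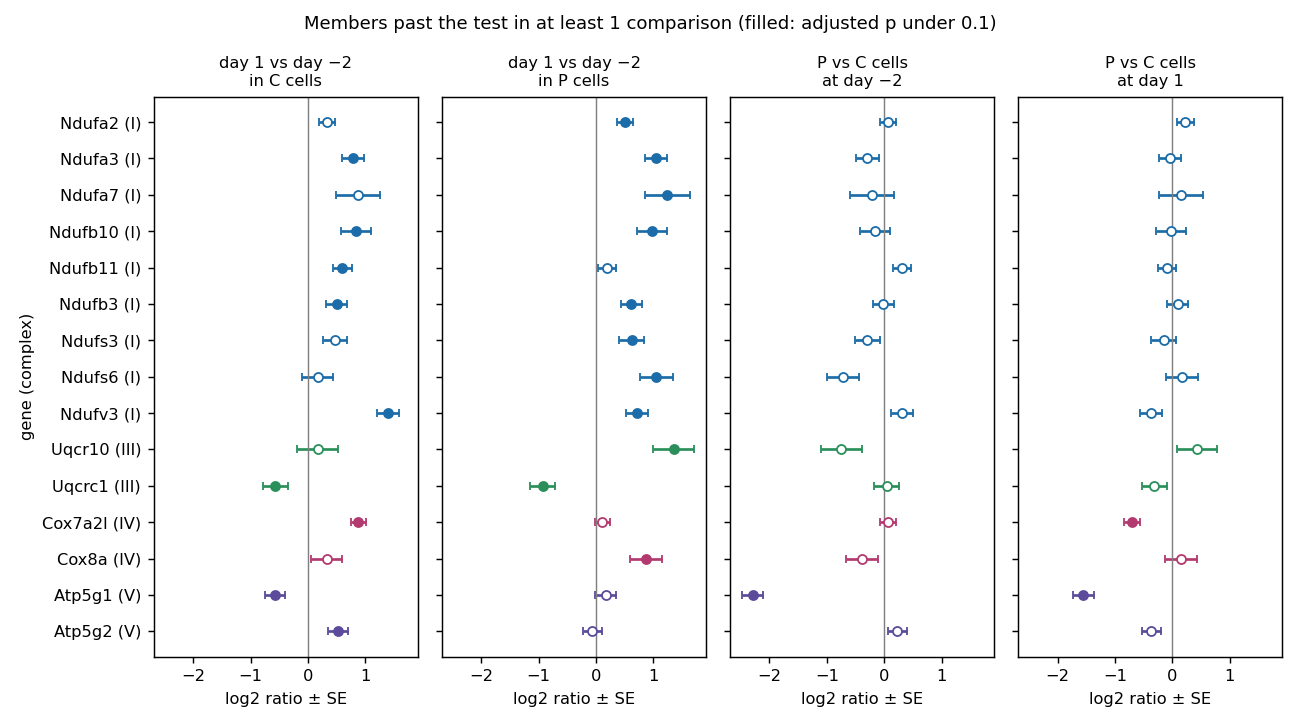
Log2 ratios with SE (horizontal axes) of the 15 members called in at least 1 comparison, for induction in C cells, induction in P cells, P against C cells at day −2 and P against C cells at day 1. Filled points have an adjusted p under 0.1, and those for P against C cells are Atp5g1 at both times and Cox7a2l at day 1.

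Whether induction acted differently with the knock-down was asked with an interaction term. It was called for 0 of 76 members by edgeR's quasi-likelihood test, beside 2.37% of all genes tested. At an unadjusted p under 0.05 there were 4 members, and DESeq2 called 1, Cox7a2l, beside 6.97% of all genes. Without replica 2 of P cells at day −2 it was called for 64 members, beside 60.0%. For Atp5g1 the difference of responses was 0.74 (SE 0.25, edgeR adjusted p = 0.264). The 2 inductions and the comparisons of P with C cells share libraries, so their values are given side by side.

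Counts were also taken without replica 1 of P cells at day −2 and replica 2 of C cells at day 1, the replicas with the lower medians. Which replica of C cells at day 1 stands apart cannot be told from these data. Replica 1 was the highest of the 8 libraries for 27 members (35.5%, all genes tested 12.2%). Replica 2 was the lowest for 1 (1.32%, all genes tested 8.99%). That count was bounded, since replica 1 of P cells at day −2 was already the lowest for 54. Against the mean of C cells at day −2, replica 1 lay below for 20 members and replica 2 for 48. Of all 13339 genes tested, 6639 and 6839 lay below. The members called were then 42 by induction in C cells, 38 by induction in P cells, 24 between P and C cells at day −2, 19 at day 1 and 17 in the interaction, beside 62.6%, 53.7%, 33.0%, 31.9% and 17.9% of all genes tested. In this setting the conditions left with a single library were assumed to vary like the others. Medians over the members were then 0.26, 0.13, 0.02, −0.12 and −0.09. Atp5g1 was among the members called between P and C cells at both times, and Cox7a2l at day 1.

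Counting limits some members. Ndufs5 and its pseudogene Ndufs5-ps had 437 and 440 counts in replica 1 of C cells at day −2, and the counts of the pair differed by at most 11 in any library, so the level of Ndufs5 is uncertain. The annotated spans of 19 members overlap another counted gene, among them Atp5a1 with Haus1, Atp5j with Gabpa, Ndufa13 with Tssk6 and Uqcrq with Gdf9.

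Other genes of mitochondrial metabolism were set beside the subunits. The 49 assembly factors, which build the complexes, had 12 members higher and 3 lower by induction in C cells, beside 18.1% and 17.4% of all genes, and 7 higher and 4 lower in P cells, beside 14.0% and 17.4%. Ndufaf7 alone was lower in P than in C cells at day −2 (log2 ratio −0.53), beside 3.72% of all genes lower and 7.62% higher. None differed between P and C cells at day 1 by edgeR's test, beside 3.42% of all genes lower and 2.73% higher. These counts are read against the same shares of all genes for the lists that follow. Of the 78 mitochondrial ribosome genes, 3 were higher and 12 lower by induction in C cells, 11 and 5 in P cells, 0 between P and C cells at day −2 and 1 at day 1, Mrps6, with a log2 ratio of 1.54. Median log2 ratios in replica 1 of P cells at day −2 were −0.11 for assembly factors and −0.34 for ribosome genes, smaller in size than the −0.83 of the subunits. Among 4 carriers and subunits outside the naming rule, Cycs, cytochrome c, fell by 0.66 on the log2 scale by induction in C cells.

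Glycolysis and lactate genes, 22 in all, were taken as the other main route to ATP. Induction in C cells called 13 higher and 1 lower, and induction in P cells 1 higher and 11 lower. At day 1, 14 were lower and 0 higher in P than in C cells, beside 3.42% and 2.73% of all genes tested. Their median log2 ratio was −0.98, beside the 0.11 of the subunits. Pfkl, the liver form of phosphofructokinase, stood at 344 and 429 CPM in C cells, against 114 and 126 in P cells at day 1. The interaction was called for 8 glycolysis genes, each with a lower response in P cells, and for 0 subunits, beside 2.37% of all genes tested. Over all genes, too, most of these calls were of a lower response in P cells, 258 against 58 of a higher one. The contrast between glycolysis genes and subunits was not itself tested. Of 18 citric acid cycle and pyruvate enzymes, pyruvate carboxylase Pcx rose by induction, by 3.37 on the log2 scale in C cells and by 1.30 in P cells. It was higher in P than in C cells at day −2 (log2 ratio 0.96) and lower at day 1 (−1.11). Other calls in this list were 2 lower in each induction, 1 lower in P than C cells at day −2 and 0 at day 1. Of all genes tested, 17.4% were lower in each induction, 3.72% at day −2 and 3.42% at day 1.

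**Figure D5:**
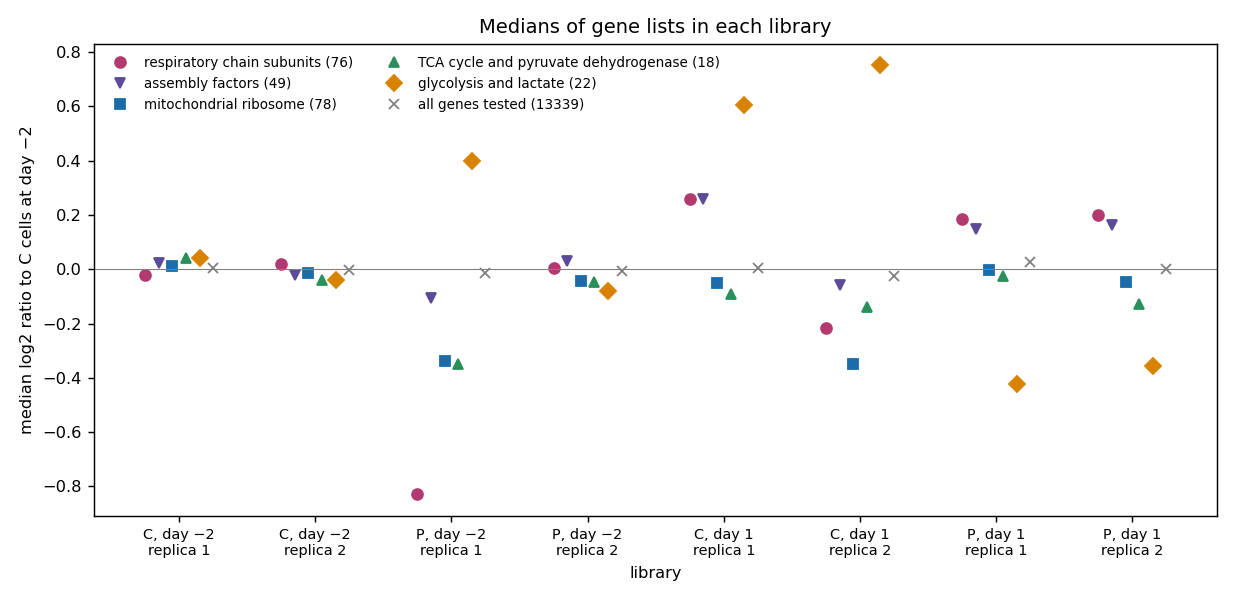
Median log2 ratio to C cells at day −2 (vertical axis) of 5 gene lists and of all genes tested in each library (horizontal axis), with the number of genes in brackets. The subunits lie lowest in replica 1 of P cells at day −2 (−0.83), and glycolysis genes lie above 0 in C cells and below 0 in P cells at day 1.

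Of 17 regulators of mitochondrial biogenesis tested, Nrf1 rose by 0.40 on the log2 scale by induction in C cells, and Ppargc1b and Pprc1 were lower there (−3.26 and −0.51). Pprc1 was also lower by induction in P cells (−0.64), and Ppargc1b was higher in P than in C cells at day 1 (2.80). Ppargc1b stood at 1.63 and 1.86 CPM at day −2 and at 0.276 and 0.0796 at day 1 in C cells, and at 2.02 and 1.53 and then 1.37 and 1.17 in P cells, so both its calls rest on a few counts in C cells at day 1. Ppargc1a, the coactivator best known for driving respiratory chain genes, stood between 0.479 and 1.14 CPM in all 8 libraries and was not called in any comparison. Of 9 thermogenic genes 4 were tested, and Dio2, which activates thyroid hormone, rose by 4.09 in C cells and 3.72 in P cells on the log2 scale. Ucp1, the uncoupling protein of brown fat, had at most 1 count in a library.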

How the data were processed

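The authors prepared RNA from 2 biological replicas per condition, sequenced it on the Ion Torrent system, removed artifacts with FASTX-Toolkit, aligned reads to mouse build mm9 with TopHat2 2.0.9 and deposited whole-number counts per gene of the UCSC refGene table, made with GenomicFeatures, GenomicRanges and GenomicAlignments. Handling of multiply mapped reads and of strand is not given in the sources used here. Gene symbols came from RefSeq (GRCm38.p6), which named 23929 of 24013 genes.

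Counts were tested with edgeR 4.0.16 (R 4.3.3): filterByExpr, TMM factors and the quasi-likelihood test over all 4 conditions, with Benjamini-Hochberg adjustment over 13339 genes. The SE is the log2 ratio divided by the root of its F statistic. Plotted log2 ratios use a prior count of 2. P-values set each difference against the spread between these libraries, estimated jointly over genes and conditions. They do not cover differences between hairpins. The ratio threshold (over 2 or under 0.5) follows the study. Alternatives were DESeq2 1.42.0, other scaling, filters and thresholds, each comparison in its own conditions, a replicate block, an offset for genomic span, and each library left out. The code was tested on simulated data.

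The members and gene lists were chosen with earlier results of these data known. Named genes were the 5 with the lowest p in each direction and comparison, those past the ratio threshold, the isoform sets, the Sdh genes and members below the filter. From each other list they were the highest and lowest log2 ratio among the calls of a comparison described, with Ppargc1a and Ucp1 in any case. Levels per length were not used here, since RefSeq gave genomic spans only.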

Additional observations from a re-analysis of the deposited data

Results flagged for a closer look

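None of the respiratory chain genes showed a called difference between the induction responses of P and C cells in edgeR's quasi-likelihood test, where 4 of 76 had an unadjusted p under 0.05 and DESeq2 called 1. Among the genes named beside them, 5 did, each with a lower response in P cells, while 2.37% of all genes tested were called. Pcx, Pgam1 and Slc16a3 were named as the extremes of the interaction calls in their lists, so their calls followed from that choice. Pfkl was named for the largest rise by induction in C cells among the glycolysis calls. Eno2 was the called glycolysis gene furthest below C cells in P cells after induction. Both of these choices used libraries that also enter the interaction, and each favoured a lower response in P cells. The 5 genes are therefore no contrast to the 76 subunits. The log2 difference of responses (P minus C cells) was −2.07 for pyruvate carboxylase Pcx, with an edgeR adjusted p of 0.0469. It was −2.33 for the phosphofructokinase gene Pfkl, −2.18 for the enolase Eno2, −1.12 for the phosphoglycerate mutase Pgam1 and −4.50 for the lactate transporter Slc16a3, with edgeR adjusted p between 0.0483 and 0.0938. Slc16a3 had few counts, with 0.385 and 0.233 CPM in P cells at day 1. Groups of 2 libraries are too small to flag a single library by its distance.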

How the results depend on the processing

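The number of members called, 9 by induction in C cells, 11 by induction in P cells, 1 between P and C cells at day −2, 2 at day 1 and 0 in the interaction, depended on the libraries and settings. Leaving out each library in turn gave 2 to 30, 0 to 64, 1 to 65, 0 to 15 and 0 to 64 calls, while the share of all genes called ran from 14.1% to 61.6%, 9.60% to 67.2%, 1.34% to 65.0%, 0.446% to 29.4% and 0.228% to 60.0%, with medians over the members from −0.19 to 0.27, 0.14 to 0.95, −0.84 to 0.026, −0.12 to 0.27 and 0.035 to 0.89. The highest counts at day −2, in P cell induction and in the interaction came without replica 2 of P cells at day −2, which leaves replica 1 as the only library of its condition, and the lone library was assumed to vary like the others. Without replica 1 the same counts were 4, 17 and 1 (19.6%, 42.2% and 10.6% of all genes).

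Leaving out replica 1 of P cells at day −2 and replica 2 of C cells at day 1 together, a choice made after seeing the data, gave 42, 38, 24, 19 and 17 calls (62.6%, 53.7%, 33.0%, 31.9% and 17.9% of all genes), a median of −0.12 between P and C cells at day 1 and −0.093 in the interaction. Cox6a1 then had an induction of 0.55 in P cells in place of −0.21, and Cox7a2 a log2 ratio of P to C cells of 0.35 at day −2 and −0.37 at day 1 in place of −0.28 and 0.13. With 1 library left out, Cox6a1 induction in P cells ran from −0.70 to 0.56, Sdha between P and C cells at day −2 from −0.30 to 0.34, and Cox7a2 from −1.43 to 0.35 at day −2 and −0.36 to 0.80 at day 1. None of these values was called with all libraries.

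Shares of all genes called in the same fit stand in brackets. DESeq2 called 18 members in P cell induction (35.1%), 2 at day −2 (19.5%) and 1 in the interaction (6.97%). An adjusted p under 0.05 left 4 and 7 calls in the inductions of C and P cells (25.8% and 21.0%), and the ratio threshold 1 and 4 there (20.4% and 18.0%) and 1 at day 1 (4.06%). Fitting each comparison on its own conditions gave 27, 1 and 10 calls for induction in C cells, induction in P cells and day 1 (62.6%, 10.0% and 27.7%). An offset for genomic span gave 5 in C cell induction and 2 at day −2 (35.2% and 11.6%), and scaling by library totals 2 at day −2 (10.6%). By library totals the median log2 ratio of all genes was −0.11, 0.19, −0.18 and 0.11 for C cell induction, P cell induction, day −2 and day 1, in place of −0.01, 0.02, 0.01 and 0.01. The causes of these changes were not tested.

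Replica numbers did not pair the libraries: deviations from the condition means correlated with r over 0.1 in 1 of 6 pairs of conditions and under 0 in 5, from −0.36 to 0.21. With the replicate block 1 member was called at day 1, Atp5g1 (3.40% of all genes), and with the numbers of day 1 crossed, added after seeing the data, 23 in P cell induction and 2 at day −2 (34.4% and 13.7%).

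The Pknox1 ratio kept its direction in every setting run but missed the threshold in several. With adjusted p under 0.05 its values were −0.62 at day −2 and −0.65 at day 1, without the filter on low counts −0.62 and −0.67, and with the replicate block −0.62 and −0.65. By library totals it missed at day 1 (−0.55) and in its own conditions at day −2 (−0.63). With 1 library left out it ran from −0.67 to −0.57 at day −2 and from −0.70 to −0.65 at day 1. Genes near the floor of 3 counts could not be compared.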
